A study of Mus musculus with 13 samples.

Results

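Crypts of the mouse small intestine that had lost Ezh2 were compared with wild-type crypts by RNA sequencing. All 3 Ezh2 knockout (KO) crypt libraries of the series and all 3 wild-type (WT) crypt libraries were used, 6 of 13 libraries in all, and 3 Eed KO crypt libraries were fitted with them because they were sequenced in both runs. The 4 remaining libraries, from organoids, were not used here. Ezh2 KO libraries are named Ezh2 KO 440_1, 440_2 and 440_3 after their sequencing run (440) and title number. The WT libraries were 440_1 from the same run and 385_1 and 385_2 from run 385, and the Eed KO libraries were 440_1, 385_1 and 385_2.

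Ezh2 KO mice are given as Ezh2-/- and their library names as AhCre with Ezh2FF. Eed KO mice are given as Eed-/-, with AhCre and EedFF in the name of the run 440 library. The run 440 WT library is named AhCre, so it carried the recombinase without a floxed allele, while the names of the run 385 crypts do not state it. All groups were of mixed C57BL/6-FVB background and received beta-naphthoflavone for 6 weeks from an age of 6 weeks, so that all mice were 12 weeks old. The compound switches on AhCre, a Cre transgene under an aryl hydrocarbon-inducible promoter, which recombines floxed alleles in intestinal epithelium and also in some other organs such as the liver. Cells that escaped recombination, and any blood or stromal cells in a crypt preparation, keep their intact allele. Nothing in the labels ties each library to its own animal, so a p-value here speaks only of variation among these libraries, part of which may be technical.

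EZH2 is the main catalytic subunit of Polycomb repressive complex PRC2, which places the repressive mark H3K27 trimethylation on the promoters of developmental genes. EED, SUZ12 and RBBP4 or RBBP7 form the rest of its core, and EZH1, a paralogue with weaker methyltransferase activity, can take the catalytic place. In the small intestine, crypts hold Lgr5+ stem cells, their dividing progeny and Paneth cells, which secrete lysozyme and defensins. Deleting EED removes both forms of the complex, whereas deleting EZH2 leaves the form built on EZH1, and the comparison asks how much of the crypt's expression programme depends on EZH2 itself.

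Depth was 15622752 to 16284618 counts in the Ezh2 KO libraries, 18300644 counts in WT 440_1, 12114344 and 11606406 counts in WT 385_1 and 385_2, and 11421666 to 15161647 counts in the Eed KO libraries. Epithelial markers marked every library as intestinal epithelium: the summed level of Epcam, Cdh1, Vil1 and Krt8 was 6104, 5571 and 5347 CPM (counts scaled to a common library size of 1e6) in Ezh2 KO crypts, against 5502 CPM in WT 440_1 and 5358 and 4761 CPM in WT 385_1 and 385_2. The 2 runs stood apart more than the genotypes. The SD over genes of the log2 difference between 2 libraries was 0.431 to 0.511 between an Ezh2 KO library and WT 440_1 and 0.704 to 0.769 between WT 440_1 and the run 385 WT libraries. Between 2 Ezh2 KO libraries it was 0.379 to 0.446. Xist, expressed from the inactive X of females, lay at 429 to 955 CPM of all counts in the Ezh2 KO libraries and 1446 CPM in WT 440_1, against 2.48 and 2.59 CPM in WT 385_1 and 385_2, whose Y-linked Ddx3y counts were 400 and 627. The Eed KO libraries had 325 to 3592 CPM of Xist, and Ddx3y counts were 0 to 1 in them and 0 in the Ezh2 KO libraries and WT 440_1. Among the WT libraries, run and sex therefore cannot be told apart, and genes on X and Y were left out throughout. Sex was not a term of the fit. Of the WT libraries only WT 440_1 shares the Xist pattern of the KO libraries, so sex differences off X and Y can enter the comparison with WT. Mitochondrially encoded transcripts took 3.85%, 4.76% and 6.46% of counts in Ezh2 KO crypts, against 8.65% in WT 440_1 and 12.4% and 14.5% in WT 385_1 and 385_2.

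Ezh2 itself fell in Ezh2 KO crypts. Its level was 21.6, 17.8 and 17.9 CPM in the Ezh2 KO libraries, against 70.0 CPM in WT 440_1 and 94.9 and 100.1 CPM in WT 385_1 and 385_2. No Ezh2 KO library reached the lowest WT library, and the mean was 0.273 times that of WT 440_1. The log2 fold change was -1.84 ± 0.16 (SE; 95% interval -2.20 to -1.47; adjusted p = 0.0167, edgeR's quasi-likelihood F test with run as a term and Benjamini-Hochberg adjustment over 13966 genes, as for every adjusted p below unless another tool is named). Counts cover the whole gene (chromosome 6, 47530274 to 47595341, GRCm38), and the labels do not place the floxed segment, so reads from a shortened transcript are counted too. The direction held when any of the 9 libraries was left out (-1.94 to -1.62), while the adjusted p was above 0.05 without Ezh2 KO 440_1 (0.0575), 440_2 (0.0894) or 440_3 (0.306), without WT 385_1 (0.106) or 385_2 (0.109), and without Eed KO 385_1 (0.113).

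Across the genome the comparison gave very few calls. Of 13966 genes tested, 0 were called higher (0%) and 2 were called lower (0.0143%) in Ezh2 KO crypts at an adjusted p under 0.05. At an unadjusted p under 0.05, 460 genes were higher (3.29%) and 681 lower (4.88%). All 3 Ezh2 KO values lay above all 3 WT values for 1381 genes (9.89%) and below them for 1371 genes (9.82%). DESeq2 called 29 genes higher (0.201%) and 29 lower (0.201%) of the 14407 to which it gave an adjusted p, and all 58 had an unadjusted p under 0.05 on the same side in edgeR. The median log2 fold change over all genes tested was -0.01, with a median SE of 0.29. Without WT 440_1, where the run effect is read from Eed KO crypts alone, 222 genes were called higher and 236 lower, so the number of calls depended on that library. At an unadjusted p under 0.05 that fit gave 2248 higher and 1123 lower. Its WT libraries are both of the pattern without Xist and with Ddx3y and its KO libraries all of the other, so sex and genotype cannot be told apart in it.

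The other gene called lower was Gm7809, annotated as a pseudogene on chromosome 17 (21966175 to 21968272). It had 0, 0.128 and 0 CPM in Ezh2 KO crypts, against 5.23 CPM in WT 440_1 and 9.11 and 8.67 CPM in WT 385_1 and 385_2. Eed KO crypts held 3.54, 7.40 and 10.1 CPM, so only the Ezh2 KO libraries were near 0. The Ezh2 KO libraries held 2 counts and the WT libraries 276, a ratio of 174-fold lower with an exact 95% counting interval of 47.6 to 1440. The adjusted p was 0.0332 (log2 fold change -6.52 ± 0.68), and it was above 0.05 when any single Ezh2 KO library (0.0894 to 0.306), WT 385_1 (0.137), WT 385_2 (0.109), Eed KO 385_1 (0.122) or Eed KO 385_2 (0.139) was left out, with RLE size factors (0.0507), with run 440 only (0.192) and without the Eed KO libraries (0.0696). It was under 0.05 in 8 of 19 alternative fits. Reads of a pseudogene can be split with near-identical copies by counting, so its level is uncertain.

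The remaining PRC2 genes held no other call. Ezh1 was 52.5, 35.7 and 43.4 CPM in Ezh2 KO crypts, against 52.5 CPM in WT 440_1 and 59.6 and 65.1 CPM in WT 385_1 and 385_2 (log2 fold change -0.50 ± 0.24, adjusted p = 0.624). Ezh1 was therefore not higher in any Ezh2 KO library than in any WT library, and its 95% interval reached from -1.04 to 0.05. Eed, the subunit that reads the mark, stood at 47.7, 68.4 and 52.7 CPM in Ezh2 KO crypts, against 48.6 CPM in WT 440_1 and 55.5 and 63.4 CPM in WT 385_1 and 385_2 (adjusted p = 0.846). Suz12, which holds the core together, was 117, 147 and 78.7 CPM in Ezh2 KO crypts, against 107, 164 and 170 CPM in WT 440_1, 385_1 and 385_2 (adjusted p = 0.737). Of the 11 PRC2 genes tested 1 was called lower, Ezh2, and 0 higher. Epop, an accessory subunit, was higher in all 3 Ezh2 KO libraries, at 2.67, 3.90 and 4.32 CPM, against 1.31, 0.837 and 0.482 CPM in WT 440_1, 385_1 and 385_2 (log2 fold change 1.8 ± 0.52, unadjusted p = 0.00683, adjusted p = 0.565).

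PRC1, the partner complex that binds H3K27me3 through its CBX subunits and ubiquitinates histone H2A, had 20 genes tested and 0 called by edgeR. Bmi1, a PCGF subunit that is also used as a marker of reserve stem cells, was called higher by DESeq2 (adjusted p = 0.0126). It had 69.4, 102.1 and 61.5 CPM in Ezh2 KO crypts, against 30.7 CPM in WT 440_1 and 36.5 and 37.1 CPM in WT 385_1 and 385_2, so the groups did not overlap (log2 fold change 1.76 ± 0.38, edgeR adjusted p = 0.562). Cbx2, a chromobox reader, was 42.6, 45.1 and 44.7 CPM in Ezh2 KO crypts, against 31.6 CPM in WT 440_1 and 23.3 and 22.3 CPM in WT 385_1 and 385_2 (unadjusted p = 0.0452, adjusted p = 0.607).

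The 12 genes ranked highest in Ezh2 KO crypts, by unadjusted p among named symbols with a mean of at least 2 CPM in either group and no overlap between groups, are given as ranked values and not as calls. They were Lin28b, Wfdc2, Hapln4, Cecr2, H2afy2, Arhgap10, Chn1, Cdk14, Myo5a, Pde1c, Fzd3 and Wasf1, and 11 of them were called by DESeq2. The exception was Wasf1 (DESeq2 adjusted p = 0.052).

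Lin28b, an RNA-binding protein of fetal tissues that blocks maturation of let-7 microRNAs, was the first of them. It had 5.58, 2.81 and 2.82 CPM in Ezh2 KO crypts, from 90, 44 and 45 counts, and 0 counts in each of the 3 WT libraries. With the floor of 3 counts summed over the WT libraries, Lin28b was at least 47.4-fold higher in Ezh2 KO crypts. The adjusted p was 0.0613, and DESeq2 gave 2.67e-09. In Eed KO crypts it stood at 2.55, 12.0 and 20.8 CPM in 440_1, 385_1 and 385_2, and Ezh2 KO against Eed KO gave a log2 fold change of 0.53 ± 0.57 (adjusted p = 0.554).

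Hapln4, a link protein of the brain's extracellular matrix, had 3.97, 5.11 and 5.64 CPM in Ezh2 KO crypts, against 0.0594 CPM in WT 440_1 and 0.0930 and 0.0964 CPM in WT 385_1 and 385_2. Each WT library held 1 count, and the ratio was 62.0-fold higher with an exact 95% counting interval of 21 to 302.9 (adjusted p = 0.0613). Eed KO crypts had 3.92, 7.32 and 2.30 CPM, a range that spans that of Ezh2 KO crypts. Wfdc2, a secreted protein with a whey acidic protein domain, reached 2.85, 3.96 and 3.45 CPM in Ezh2 KO crypts, against 0.892, 0.558 and 0.482 CPM in WT 440_1, 385_1 and 385_2 (log2 fold change 2.08 ± 0.26, adjusted p = 0.0613). Its level in Eed KO crypts was far higher, at 137, 111 and 97.8 CPM, and Ezh2 KO crypts fell below Eed KO crypts by 5.38 on the log2 scale (adjusted p = 6.54e-06).

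Chn1, a GTPase-activating protein for Rac, was 4.15, 4.54 and 4.32 CPM in Ezh2 KO crypts, against 0.238 CPM in WT 440_1 and 0.372 and 1.25 CPM in WT 385_1 and 385_2. Arhgap10, a GTPase-activating protein, was 8.0, 8.5 and 10.4 CPM in Ezh2 KO crypts, against 2.79, 2.6 and 3.08 CPM in WT 440_1, 385_1 and 385_2. Wasf1, an activator of actin branching, was 3.16, 2.68 and 4.45 CPM in Ezh2 KO crypts, against 0.713, 0.744 and 0.675 CPM in WT 440_1, 385_1 and 385_2. For Arhgap10 and Wasf1 the 3 WT libraries lay close together across both runs. Myo5a, an unconventional myosin that carries vesicles, had 14.6, 14.9 and 10.7 CPM in Ezh2 KO crypts, against 5.41, 7.63 and 8.10 CPM in WT 440_1, 385_1 and 385_2. These 4 genes had log2 fold changes of 3.33 ± 0.62, 1.67 ± 0.29, 2.14 ± 0.45 and 1.66 ± 0.33 in that order, with adjusted p-values from 0.295 to 0.549.

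Cecr2, a bromodomain subunit of a nucleosome remodelling complex, was 6.45, 4.60 and 7.52 CPM in Ezh2 KO crypts, against 0.951 CPM in WT 440_1 and 1.86 and 2.89 CPM in WT 385_1 and 385_2 (adjusted p = 0.259). H2afy2, which encodes the histone variant macroH2A2, was 3.10, 4.86 and 4.45 CPM in Ezh2 KO crypts, against 0.832, 0.465 and 0.578 CPM in WT 440_1, 385_1 and 385_2 (adjusted p = 0.259). Fzd3, a Wnt receptor, was 2.91, 4.15 and 1.57 CPM in Ezh2 KO crypts, against 0.476, 0.186 and 0.193 CPM in WT 440_1, 385_1 and 385_2. Cdk14, a cyclin-dependent kinase that acts on the Wnt co-receptor LRP6, was 2.98, 3.13 and 2.32 CPM in Ezh2 KO crypts, against 0.892, 0.837 and 1.35 CPM in WT 440_1, 385_1 and 385_2. Pde1c, a calcium-dependent phosphodiesterase, was 4.09, 3.83 and 2.88 CPM in Ezh2 KO crypts, against 0.951, 1.40 and 0.964 CPM in WT 440_1, 385_1 and 385_2. Of the 12 genes, 2 differed from Eed KO crypts at an adjusted p under 0.05, Wfdc2 and Cdk14, and both were lower in Ezh2 KO crypts than in Eed KO crypts (12.7% of all genes were called lower).

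**Figure D1:**
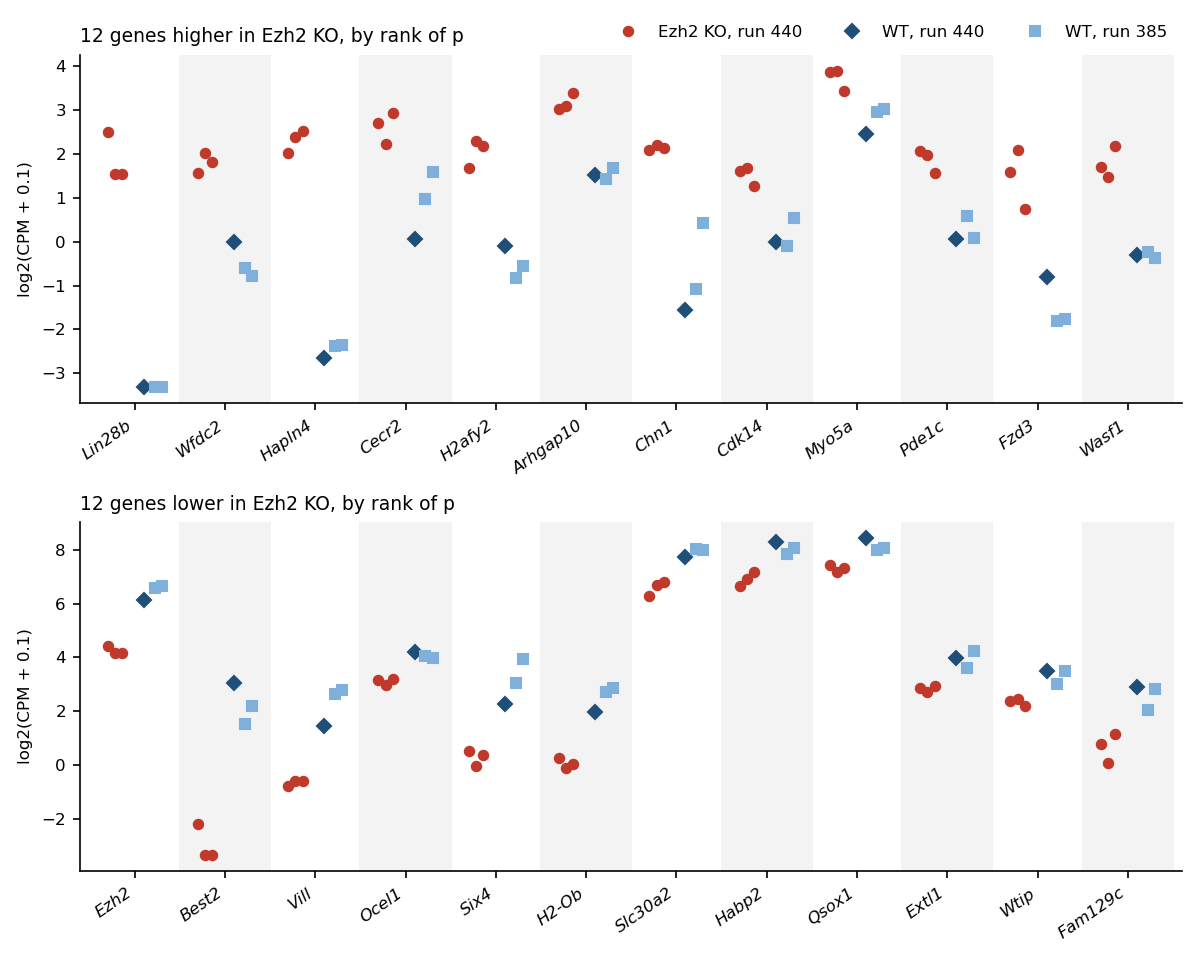
Level of the 12 genes ranked highest and the 12 ranked lowest in Ezh2 KO crypts, as log2(CPM + 0.1) on the vertical axis. Each red circle is an Ezh2 KO library, each dark diamond WT 440_1 and each light square a WT library of run 385; in every gene shown the 3 Ezh2 KO libraries lie on one side of all 3 WT libraries, as the ranking rule required.

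PRC2 acts mostly on promoters rich in CpG, so the promoters of the ranked genes were read. RefSeq promoter windows (GRCm38.p6, 250 bases before to 50 after the start) were matched by symbol for 7 of the 12 higher genes and 10 of the 12 lower genes. The dinucleotide CG, which reads the same on both strands, occurred a median of 17 times in the higher genes (range 8 to 53) and 14 times in the lower genes (range 2 to 39), against a median of 20 with quartiles of 12 and 28 over the 10598 tested genes with a window. The windows with the most and the fewest CG among the higher genes are shown, with each CG in capitals. The Cdk14 window lies at chr5:5380202-5380501 on the minus strand and holds 53 CG, and 0.9% of windows held at least as many. The Lin28b window lies at chr10:45470152-45470451 on the minus strand and holds 8 CG, and 83.5% of windows held at least as many. The data do not bear on whether PRC2 occupied either window.
Cdk14: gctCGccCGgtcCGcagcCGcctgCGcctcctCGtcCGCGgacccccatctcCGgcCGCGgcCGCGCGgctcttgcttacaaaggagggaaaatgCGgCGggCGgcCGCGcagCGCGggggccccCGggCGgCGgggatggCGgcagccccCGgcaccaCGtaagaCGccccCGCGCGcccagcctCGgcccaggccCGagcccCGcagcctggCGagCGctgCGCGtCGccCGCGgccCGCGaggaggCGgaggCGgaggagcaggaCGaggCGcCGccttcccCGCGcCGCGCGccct
Lin28b: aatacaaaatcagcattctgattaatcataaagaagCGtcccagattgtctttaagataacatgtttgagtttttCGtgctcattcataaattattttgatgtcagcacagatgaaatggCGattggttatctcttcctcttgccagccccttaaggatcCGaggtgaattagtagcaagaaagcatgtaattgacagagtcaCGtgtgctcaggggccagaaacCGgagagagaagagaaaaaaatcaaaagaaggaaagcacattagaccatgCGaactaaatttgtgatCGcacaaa

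The 12 genes ranked lowest were Ezh2, Best2, Vill, Ocel1, Six4, H2-Ob, Slc30a2, Habp2, Qsox1, Extl1, Wtip and Fam129c, and DESeq2 called all 12. Best2, an anion channel known from goblet cells of the colon, had 0.124, 0 and 0 CPM in Ezh2 KO crypts, against 8.2 CPM in WT 440_1 and 2.79 and 4.53 CPM in WT 385_1 and 385_2. That is 2 counts against 215, a ratio of 135.2-fold lower with an exact 95% counting interval of 37.0 to 1124 (adjusted p = 0.0675). Eed KO crypts had 5.04, 10.6 and 9.12 CPM of Best2, so of the 9 libraries only the Ezh2 KO libraries were near 0. Vill, a villin-like actin-binding protein, was 0.496, 0.575 and 0.564 CPM in Ezh2 KO crypts, against 2.62 CPM in WT 440_1 and 6.14 and 6.75 CPM in WT 385_1 and 385_2, whereas Eed KO crypts had 51.0, 44.6 and 29.8 CPM. Ezh2 KO and Eed KO crypts lay on opposite sides of WT crypts for Vill, and the difference between the KO groups was -6.09 ± 0.45 on the log2 scale (adjusted p = 0.000104).

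Six4, a homeodomain transcription factor, was 1.36, 0.895 and 1.19 CPM in Ezh2 KO crypts, against 4.70 CPM in WT 440_1 and 8.18 and 15.4 CPM in WT 385_1 and 385_2 (log2 fold change -2.13 ± 0.38, adjusted p = 0.303). Slc30a2, which carries zinc into secretory granules, was 77.6, 102.9 and 110.0 CPM in Ezh2 KO crypts, against 209.7 CPM in WT 440_1 and 259 and 255 CPM in WT 385_1 and 385_2 (adjusted p = 0.404). Extl1, a glycosyltransferase of the exostosin family whose gene follows Slc30a2 on chromosome 4, was 7.13, 6.45 and 7.58 CPM in Ezh2 KO crypts, against 15.7, 12.2 and 18.7 CPM in WT 440_1, 385_1 and 385_2 (adjusted p = 0.562). Qsox1, a secreted enzyme that forms disulphide bonds, was 174, 143 and 159 CPM in Ezh2 KO crypts, against 344, 256 and 266 CPM in WT 440_1, 385_1 and 385_2. Ocel1 had a log2 fold change of -1.20 ± 0.21 (adjusted p = 0.303) and Wtip, a LIM domain protein, one of -1.35 ± 0.29 (adjusted p = 0.562). Of the 12 lower genes, 9 were lower in Ezh2 KO crypts than in Eed KO crypts at an adjusted p under 0.05 and 0 higher (12.7% and 7.97% over all genes). The 12 were picked for low Ezh2 KO values, so part of that count was set by the choice.

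**Figure D2:**
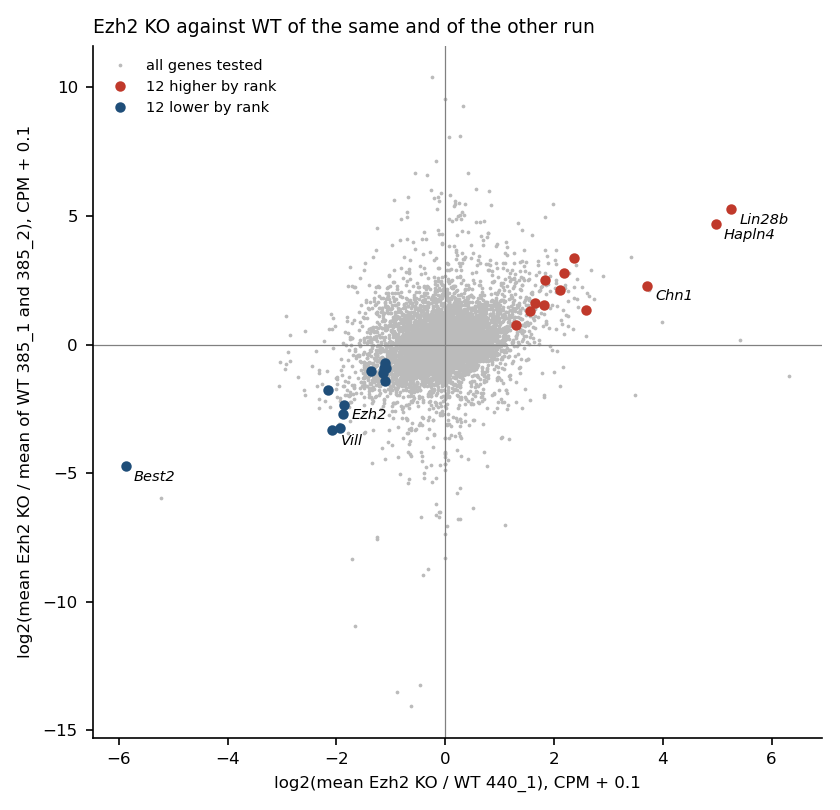
Each point is a gene of the 13966 tested: the horizontal axis is the log2 ratio of mean Ezh2 KO CPM to WT 440_1, the vertical axis the log2 ratio to the mean of WT 385_1 and 385_2, with 0.1 CPM added. The cloud spreads more along the vertical axis (SD 0.96) than along the horizontal one (SD 0.54). The ranked genes, higher in red and lower in blue, lie on the same side of 0 on both axes, as the ranking rule required.

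Paneth cell genes lay mostly below WT levels in Ezh2 KO crypts. Of 21 tested, 0 were called by edgeR in either direction, 12 had an unadjusted p under 0.05 and were lower, and 11 had all 3 Ezh2 KO values below all WT values, against 1 above. Over all genes, 4.88% were lower at that unadjusted p and 9.82% lay wholly below. The list's median log2 fold change was -0.85, beside -0.01 over all genes. Lyz1, lysozyme of Paneth granules, was 10491, 21440 and 22599 CPM in Ezh2 KO crypts, against 45145 CPM in WT 440_1 and 42534 and 44588 CPM in WT 385_1 and 385_2 (log2 fold change -1.56 ± 0.45, edgeR adjusted p = 0.565, DESeq2 adjusted p = 0.034). All WT libraries stood near one level across both runs, and Ezh2 KO 440_1 was the lowest library of the 6.

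Ang4, an angiogenin with antimicrobial activity, was 1051, 2308 and 2471 CPM in Ezh2 KO crypts, against 3432 CPM in WT 440_1 and 3762 and 3625 CPM in WT 385_1 and 385_2 (adjusted p = 0.602). Habp2, a serine protease, was 100.9, 120.0 and 142 CPM in Ezh2 KO crypts, against 313 CPM in WT 440_1 and 227 and 266 CPM in WT 385_1 and 385_2 (log2 fold change -1.24 ± 0.24, adjusted p = 0.433, DESeq2 adjusted p = 0.0117). Itln1, a lectin that binds microbial sugars, was 8834, 10979 and 12987 CPM in Ezh2 KO crypts, against 22718 CPM in WT 440_1 and 14565 and 13340 CPM in WT 385_1 and 385_2. The groups did not overlap for these 3 genes. Wnt3, the niche signal that Paneth cells give to stem cells, was 21.8, 32.1 and 37.2 CPM in Ezh2 KO crypts, against 51.1 CPM in WT 440_1 and 42.4 and 52.9 CPM in WT 385_1 and 385_2 (unadjusted p = 0.0339).

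Not every Paneth gene was lower. Mmp7, the protease that activates defensins, overlapped between groups at 1055, 1183 and 1412 CPM in Ezh2 KO crypts, against 2134 CPM in WT 440_1 and 974 and 1330 CPM in WT 385_1 and 385_2 (adjusted p = 0.804). Mptx1 was the gene with all 3 Ezh2 KO values above, at 312, 169.9 and 178 CPM, against 136 CPM in WT 440_1 and 20.4 and 9.54 CPM in WT 385_1 and 385_2. Defensin genes are near-identical copies whose reads counting can split, so Defa17, Defa22, Defa24, Defa26, Defa29 and the like are uncertain, and Pla2g2a differed between runs at 13846 CPM in WT 440_1 and 215 and 265 CPM in WT 385_1 and 385_2. In bulk libraries, fewer Paneth cells and less RNA per Paneth cell cannot be told apart. The summed level of the enterocyte list was 21090, 14592 and 16413 CPM in Ezh2 KO crypts, against 12838 CPM in WT 440_1 and 14291 and 11290 CPM in WT 385_1 and 385_2, and all 4 defining markers (Alpi, Apoa4, Sis, Fabp1) were detected in every library. With run as a term, the enterocyte list's median log2 fold change was -0.004. It ran from -1.25 without WT 440_1 to 0.98 without a run term. The part of the enterocyte content and of the mitochondrial share in the Paneth difference was not tested. Paneth cell genes kept a negative median in all 19 alternative fits (-1.24 to -0.63).

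**Figure D3:**
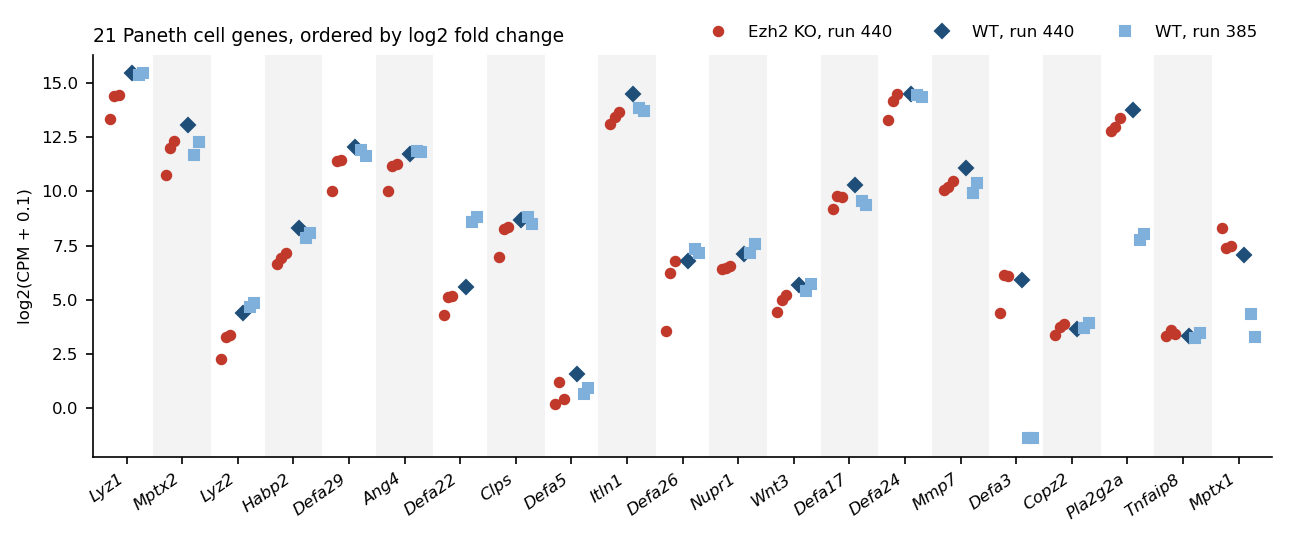
Level of the 21 tested Paneth cell genes as log2(CPM + 0.1), ordered from the most negative log2 fold change on the left. Ezh2 KO libraries (circles) lie below WT 440_1 (diamond) and the run 385 WT libraries (squares) for genes such as Lyz1, Lyz2, Habp2 and Ang4, while Defa3, Pla2g2a and Mptx1 differ between the WT libraries of the 2 runs.

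Stem cell and proliferation genes showed no call. Of 28 crypt base stem cell genes and 48 proliferation genes tested, 0 were called in either direction, with median log2 fold changes of -0.08 and 0.06. Of the proliferation genes 13 lay wholly above WT and 2 wholly below, beside 9.89% and 9.82% over all genes, and 0 had an unadjusted p under 0.05 in either direction. Their median was -0.11 without WT 440_1. Lgr5, the receptor that marks crypt base columnar stem cells, was 124, 122 and 144 CPM in Ezh2 KO crypts, against 89.4 CPM in WT 440_1 and 109 and 122 CPM in WT 385_1 and 385_2, with the lowest Ezh2 KO value just above the highest WT value (log2 fold change 0.55 ± 0.21, adjusted p = 0.602). Olfm4, another stem cell marker, was 3259, 3733 and 3663 CPM in Ezh2 KO crypts, against 3748 CPM in WT 440_1 and 3837 and 3930 CPM in WT 385_1 and 385_2 (adjusted p = 0.671). Ascl2, the transcription factor of stem cell identity, split the Ezh2 KO libraries, with 24.6, 62.1 and 53.5 CPM, against 24.1 CPM in WT 440_1 and 25 and 19.1 CPM in WT 385_1 and 385_2. Ezh2 KO 440_1 lay within the WT range and the other two above it (adjusted p = 0.614). Mki67, a marker of cycling cells, was 316, 541 and 226 CPM in Ezh2 KO crypts, against 461 CPM in WT 440_1 and 713 and 780 CPM in WT 385_1 and 385_2 (log2 fold change 0.06 ± 0.42). Its Ezh2 KO mean was 0.783 times WT 440_1 and 0.484 times the run 385 WT mean, unlike the fitted change near 0. The fit's run term also draws on Eed KO crypts, with 59.8 CPM of Mki67 in 440_1 and 281 and 266 CPM in 385_1 and 385_2. Mcm4, a subunit of the replicative helicase, was 135, 201 and 157 CPM in Ezh2 KO crypts, against 112 CPM in WT 440_1 and 150 and 134 CPM in WT 385_1 and 385_2 (log2 fold change 0.45 ± 0.25, adjusted p = 0.649). Kif2c, a mitotic kinesin, was 46.4, 40.1 and 44.7 CPM in Ezh2 KO crypts, against 51.7, 51.7 and 52.5 CPM in WT 440_1, 385_1 and 385_2 (log2 fold change -0.53 ± 0.24, adjusted p = 0.614).

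Against Eed KO crypts the same lists differed. Ezh2 KO against Eed KO gave 1113 genes higher (7.97%) and 1779 lower (12.7%) of 13966. These counts became 578 higher without Ezh2 KO 440_2, 2109 higher without WT 440_1 and 1093 lower without Eed KO 440_1. Of 48 proliferation genes, 39 were higher in Ezh2 KO crypts than in Eed KO crypts and 0 lower (median difference 1.19 on the log2 scale). Lgr5 was higher by 1.79 (adjusted p = 0.000998) and Olfm4 by 2.72 (adjusted p = 0.000663), with Eed KO levels of 37.3, 58.3 and 39.5 CPM for Lgr5 and 672, 331 and 317 CPM for Olfm4.

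The genes for which PRC2 is best known held no call in Ezh2 KO crypts. Of 35 Hox genes tested, which pattern the body axis, 0 were called higher or lower, the median log2 fold change was 0.08 and 0 had all Ezh2 KO values above WT. Without WT 440_1 the median became 0.82. Of 36 Hox genes matched, 17 had 3 or fewer summed counts in Ezh2 KO crypts and 16 in WT crypts, against 0 in Eed KO crypts. Genes with so few counts in both groups passed the filter through Eed KO crypts. For them neither the lack of calls nor the median says much about Ezh2 KO against WT. Their summed level was 18.7, 13 and 20.7 CPM in Ezh2 KO crypts, against 23.4 CPM in WT 440_1 and 8.28 and 13.5 CPM in WT 385_1 and 385_2, while Eed KO crypts held 397, 474 and 511 CPM. Hoxd13, a gene of the posterior body, had 0, 0 and 0.0627 CPM in Ezh2 KO crypts and 0 counts in every WT library, against 29.3, 34.5 and 31.5 CPM in Eed KO crypts. Hoxb13 and En2 had 0 counts in all Ezh2 KO and WT libraries. Of 35 Hox genes, 31 were lower in Ezh2 KO crypts than in Eed KO crypts and 0 higher (12.7% and 7.97% over all genes), with a median difference of -5.21. For Hox genes that passed the filter only through Eed KO crypts, a lower Ezh2 KO value was set in advance.

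Of 76 developmental transcription factors of other tissues tested, 0 were called against WT, with a median of 0.06 (0.25 without WT 440_1). Against Eed KO crypts 67 were lower and 1 higher (12.7% and 7.97% over all genes). Over the list's members off X and Y, tested or not, 84 had 3 or fewer summed counts in Ezh2 KO crypts, 80 in WT crypts and 9 in Eed KO crypts. Members that passed the filter only through Eed KO crypts were bound to be lower in Ezh2 KO crypts, and their values against WT say little. Irx2, an Iroquois homeobox gene named here after its values were seen, was 1.43, 0.703 and 0.877 CPM in Ezh2 KO crypts, against 0.476, 0.186 and 0.386 CPM in WT 440_1, 385_1 and 385_2 (unadjusted p = 0.0221, adjusted p = 0.596). Eed KO crypts had 13.1, 12.7 and 13.4 CPM of Irx2. Zic1, a zinc finger factor of the neural tube, had 0 counts in Ezh2 KO crypts and 1 count in WT crypts, beside 35.6, 54.0 and 55.0 CPM in Eed KO crypts. Cdkn2a, the locus of the cell cycle inhibitors p16 and p19Arf that PRC2 represses in many cells, had 0.0620, 0 and 0.0627 CPM in Ezh2 KO crypts, against 0.0594 CPM in WT 440_1 and 0.0930 and 0 CPM in WT 385_1 and 385_2, and 66.6, 52.8 and 61.1 CPM in Eed KO crypts. The difference between the KO groups was -10.36 on the log2 scale (adjusted p = 7.07e-06). Cdkn1a, the p21 inhibitor, was 79.9, 52.5 and 66.1 CPM in Ezh2 KO crypts, above 42.4 CPM in WT 440_1 and 40.6 and 35.9 CPM in WT 385_1 and 385_2 (log2 fold change 0.45 ± 0.28, adjusted p = 0.678).

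**Figure D4:**
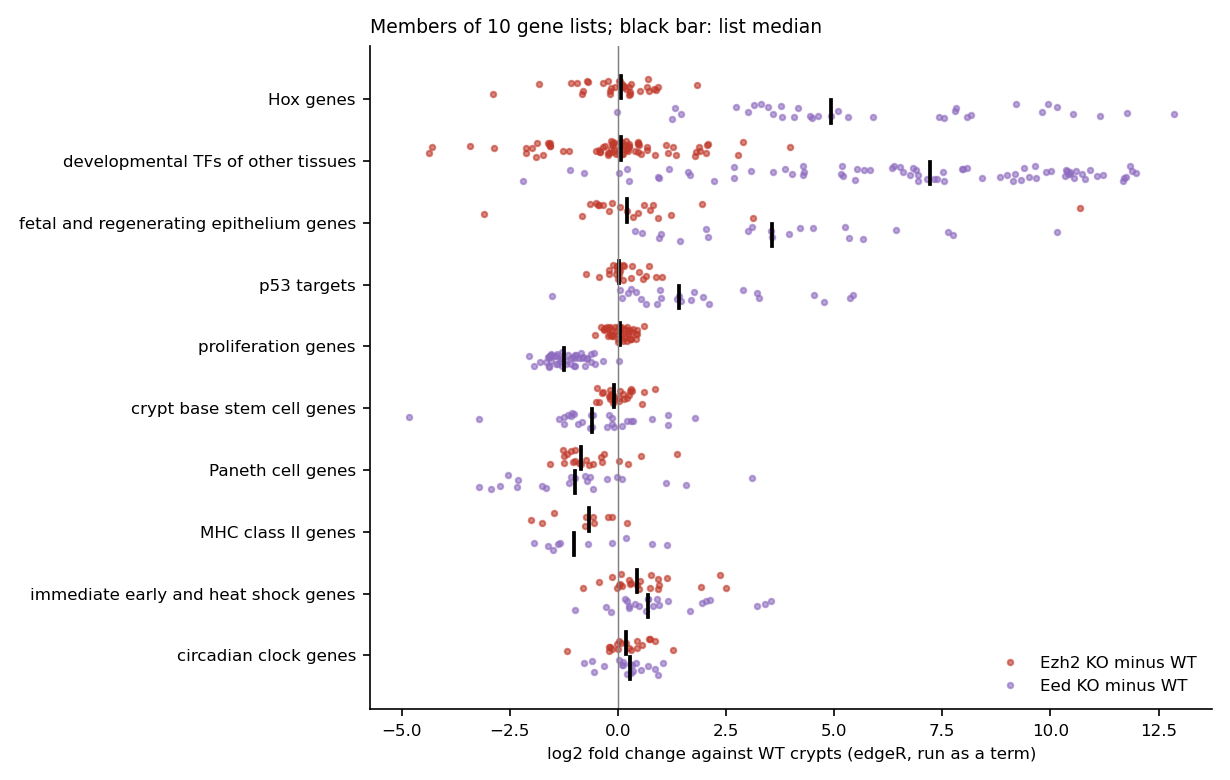
Log2 fold change against WT crypts of the tested members of 10 gene lists, with Ezh2 KO (red) above Eed KO (purple) in each row and a black bar at each list's median. Both comparisons share the WT libraries. Hox genes have a median of 0.08 in Ezh2 KO and 4.94 in Eed KO crypts, developmental transcription factors 0.06 and 7.23, and Paneth cell genes -0.85 and -0.98. Many Hox genes and developmental transcription factors had almost no counts in Ezh2 KO and WT crypts and passed the filter through Eed KO crypts.

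Genes with no count in any WT library were counted next, a set in which either KO group can only be higher than WT. Of 1813 such genes off X and Y, 6 had at least 3 counts in all 3 Ezh2 KO libraries, against 172 in all 3 Eed KO libraries. At 5 counts the numbers were 2 and 126, and at 10 counts 2 and 92. In the other direction, 2059 genes had no count in Ezh2 KO crypts, and 3 of them had at least 3 counts in all WT libraries. The 6 genes were Lin28b, Popdc3, Gldc, Cym, Hsd3b3 and Gm26764, chosen by this rule after their values were seen. Popdc3, a membrane protein of muscle, had 12, 16 and 18 counts in Ezh2 KO crypts and 4, 1 and 6 in Eed KO crypts 440_1, 385_1 and 385_2. Its gene ends 58.2 kb before Lin28b on chromosome 10, so the 2 genes that passed 10 counts are neighbours. Gldc, the glycine decarboxylase, had 4, 8 and 5 counts in Ezh2 KO crypts and 39, 40 and 15 in Eed KO crypts.

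Of 21 genes of fetal and regenerating epithelium tested, 0 were called by edgeR in Ezh2 KO crypts, and DESeq2 called 2 higher, Lin28b and Ly6a. The median over the list was 0.20, and 1.06 without WT 440_1. Ly6a, the surface antigen Sca-1 of regenerating epithelium, was 16.4, 16.2 and 43.2 CPM in Ezh2 KO crypts, against 6.18 CPM in WT 440_1 and 2.33 and 2.6 CPM in WT 385_1 and 385_2 (log2 fold change 1.94 ± 0.51, edgeR adjusted p = 0.565, DESeq2 adjusted p = 0.034). Ezh2 KO 440_3 stood above the other two. Igf2bp1, an RNA-binding protein of fetal tissues, was 0, 0 and 0.0627 CPM in Ezh2 KO crypts, against 0.357, 0.0930 and 0.193 CPM in WT 440_1, 385_1 and 385_2, and 45.8, 49.5 and 46.9 CPM in Eed KO crypts. Among imprinted genes, 0 of 29 were called, and Igf2, a fetal growth factor, was 1.61, 1.79 and 1.82 CPM in Ezh2 KO crypts, against 1.55, 1.86 and 1.25 CPM in WT 440_1, 385_1 and 385_2, and 115, 78.4 and 52.9 CPM in Eed KO crypts.

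Enteroendocrine cells make gut hormones, and their genes were split in direction. Of 34 tested, 0 were called by edgeR. At an unadjusted p under 0.05, 4 were higher and 6 lower, beside 3.29% and 4.88% over all genes. Wholly above WT lay 3 and wholly below 8, beside 9.89% and 9.82% over all genes. Gcg, which encodes glucagon-like peptides, was 23.1, 17.4 and 22.8 CPM in Ezh2 KO crypts, against 66.3 CPM in WT 440_1 and 64.1 and 91.9 CPM in WT 385_1 and 385_2 (log2 fold change -2.90 ± 0.72, edgeR adjusted p = 0.565, DESeq2 adjusted p = 0.00221). Its Ezh2 KO mean was 0.318 times WT 440_1 and 0.271 times the run 385 WT mean, both smaller changes than the fitted one. The fit's run term also draws on Eed KO crypts, with 26.0 CPM of Gcg in 440_1 and 2.20 and 5.54 CPM in 385_1 and 385_2. Pax6, a transcription factor that acts on the Gcg promoter in endocrine cells, was 1.43, 1.09 and 1.5 CPM in Ezh2 KO crypts, against 3.80, 3.44 and 5.2 CPM in WT 440_1, 385_1 and 385_2 (adjusted p = 0.565). Sst, somatostatin, was 68.5, 63.8 and 98.2 CPM in Ezh2 KO crypts, against 33.3 CPM in WT 440_1 and 26.1 and 17.4 CPM in WT 385_1 and 385_2 (log2 fold change 1.32 ± 0.37, adjusted p = 0.565). Ghrl, ghrelin, was 74.4, 60.0 and 76.7 CPM in Ezh2 KO crypts, against 18.5 CPM in WT 440_1 and 9.58 and 12.2 CPM in WT 385_1 and 385_2 (log2 fold change 1.48 ± 0.47, adjusted p = 0.588). None of these 4 genes overlapped between groups, while Chga, an endocrine cell marker, did (138, 101.0 and 132 CPM in Ezh2 KO crypts, against 150, 154 and 126 CPM in WT 440_1, 385_1 and 385_2). Of 16 proximal small intestine genes 0 were called, 8 lay wholly above WT and 2 wholly below, and of 15 ileum genes 0 were called, 7 lay wholly above and 0 below, beside 9.89% above and 9.82% below over all genes. The medians of the lists were -0.20 and 0.43, and -1.07 and -1.58 without WT 440_1.

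The 2 B lymphocyte genes described here were named after their values were seen, and both had lower values in Ezh2 KO crypts. Cd79a, of the B cell receptor, was 3.35, 2.88 and 3.51 CPM in Ezh2 KO crypts, against 9.63, 8.56 and 9.45 CPM in WT 440_1, 385_1 and 385_2, and Ms4a1, CD20, was 3.22, 1.53 and 1.82 CPM against 8.98, 6.05 and 7.04 CPM. The groups did not overlap for either gene, as for the 9.82% of all genes that lay wholly below WT. Their adjusted p-values were 0.565 and 0.607. Of the ranked lower genes, H2-Ob, an MHC class II chaperone of B cells, was 1.12, 0.831 and 0.940 CPM in Ezh2 KO crypts, against 3.80 CPM in WT 440_1 and 6.51 and 7.23 CPM in WT 385_1 and 385_2 (edgeR adjusted p = 0.359, DESeq2 adjusted p = 0.0221), and Fam129c, also expressed in B cells, was 1.61, 0.958 and 2.13 CPM against 7.31, 4.09 and 6.94 CPM (edgeR adjusted p = 0.562). Mcpt1, a protease of mucosal mast cells, was 1.12, 1.66 and 1.32 CPM in Ezh2 KO crypts, against 7.19, 3.81 and 2.31 CPM in WT 440_1, 385_1 and 385_2 (edgeR adjusted p = 0.565, DESeq2 adjusted p = 0.000417). Eed KO crypts, which enter the run term of both fits, had 69.7 CPM of Mcpt1 in 440_1 and 1.49 and 4.69 CPM in 385_1 and 385_2. Over the 32 immune cell genes tested, the median log2 fold change was -0.35, and 0.80 without WT 440_1. Among them, 0 were called by edgeR, and 7 lay wholly below and 1 wholly above, beside 9.82% and 9.89% over all genes. Their summed level overlapped at 108, 186 and 166 CPM in Ezh2 KO crypts, against 229.6 CPM in WT 440_1 and 157 and 162 CPM in WT 385_1 and 385_2. Whether recombination reached these cells, or fewer of them came with the crypts, was not tested. Of 10 MHC class II genes tested 0 were called by edgeR, and 5 were lower at an unadjusted p under 0.05 (4.88% over all genes). The median was -0.66 (-0.01 without a run term). H2-Ab1, a class II chain, overlapped, at 379, 285 and 283 CPM in Ezh2 KO crypts, against 529 CPM in WT 440_1 and 168 and 306 CPM in WT 385_1 and 385_2 (adjusted p = 0.602).

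Interferon-induced genes and class I antigen presentation genes, 47 tested, held 0 edgeR calls, 19 genes wholly above WT and 1 wholly below (9.89% and 9.82% over all genes), with a median log2 fold change of 0.31. At an unadjusted p under 0.05, 6 were higher and 3 lower (3.29% and 4.88% over all genes). Ifi44, an interferon-induced protein, was 6.76, 7.09 and 10.0 CPM in Ezh2 KO crypts, against 2.38 CPM in WT 440_1 and 3.44 and 3.95 CPM in WT 385_1 and 385_2 (edgeR adjusted p = 0.562, DESeq2 adjusted p = 0.0141). Ifit1, which binds viral RNA, was 8.06, 9.33 and 15.4 CPM in Ezh2 KO crypts, against 2.97, 2.23 and 2.02 CPM in WT 440_1, 385_1 and 385_2 (adjusted p = 0.565). The groups did not overlap for either gene. Tap1, which carries peptides to class I molecules, overlapped between groups at 219, 142 and 156 CPM in Ezh2 KO crypts, against 332 CPM in WT 440_1 and 78.9 and 133 CPM in WT 385_1 and 385_2 (log2 fold change -0.89 ± 0.29, adjusted p = 0.589).

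Heat shock and circadian clock genes also held 0 edgeR calls. Of 23 immediate early and heat shock genes tested, 4 were higher and 0 lower at an unadjusted p under 0.05 (median 0.45). Of 19 clock genes, 5 were higher and 0 lower (median 0.20). Over all genes, 3.29% were higher and 4.88% lower at that unadjusted p. The heat shock list had a median of 0.28 without Ezh2 KO 440_1, and the clock list one of 0.05 without Ezh2 KO 440_1 and 0.64 without WT 440_1. Hsph1, a chaperone, was 98.5, 380.4 and 442 CPM in Ezh2 KO crypts, against 96.4 CPM in WT 440_1 and 106 and 91.4 CPM in WT 385_1 and 385_2 (adjusted p = 0.579). Ezh2 KO 440_1 lay within the WT range and the other two far above it. Hlf, a clock output factor, was 4.22, 3.26 and 4.07 CPM in Ezh2 KO crypts, against 1.66, 2.42 and 1.64 CPM in WT 440_1, 385_1 and 385_2 (adjusted p = 0.565). Cry1, a clock repressor, was 17.9, 22 and 20.1 CPM in Ezh2 KO crypts, against 12.4, 14 and 11.9 CPM in WT 440_1, 385_1 and 385_2 (adjusted p = 0.588). The hour of dissection of each library is not used here.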

How the data were processed

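Gene counts per library were deposited by the authors as 1 table per sequencing run, with no normalization. Per the submitters' processing notes, GRCm38, TopHat2 2.0.12, Bowtie 0.12.9, HTSeq and DESeq2 were named, without roles. Per the labels' protocols, crypts were freed by scraping and EDTA, RNA was taken up in TRIzol, and strand-specific poly-A libraries were sequenced. The labels and file headers do not state whether counting used strand. The tables listed 23969 genes (run 385) and 22634 (run 440). Of 21420 shared IDs, 852 on X or Y were left out and 20568 kept, and 21211 shared IDs were named by the annotation.

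The 9 crypt libraries were fitted on group and run with edgeR 4.0.16 in R 4.3.3 (TMM, robust quasi-likelihood F test, 5 residual degrees of freedom) after a filter at a count of 10 in enough libraries and 15 in total, which left 13966 genes. Benjamini-Hochberg adjustment covered all of them, with a threshold of 0.05. SEs and 95% intervals follow from p and the degrees of freedom. CPM uses TMM-adjusted library sizes. DESeq2 1.42.0 was an alternative, and fits were tested on simulated data. Ratios against 0 counts use a floor of 3 counts summed over a group. Exact intervals of count ratios, and floors, cover counting error only. No 2 libraries of a group were duplicates within sampling noise.

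Named genes were those past the threshold, Ezh2, Ezh1, Eed and Suz12, the 12 ranked on each side, a set of anchor genes, and up to 3 further members per list by unadjusted p. Genes named outside this rule are marked. Members, lists and rules were chosen with earlier results of these data known. Some results are not reported here.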

Additional observations from a re-analysis of the deposited data

How the results depend on the processing

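Genes called higher in Ezh2 KO than in WT crypts numbered 29 with DESeq2, 3 without a low-count filter, 2 without a run term, 1 with run 440 only and 1 without the Eed KO libraries. Genes called lower numbered 29 with DESeq2, 1 with RLE size factors, 4 without a filter, 4 without a run term, 0 with run 440 only and 1 without the Eed KO libraries. Leaving out 1 library gave 0 to 222 higher and 0 to 236 lower calls, the highest counts being those without WT 440_1. Ezh2 KO against Eed KO gave 1778 higher with DESeq2, 1159 lower with a stricter filter, and 578 to 2109 higher and 1093 to 1910 lower when 1 library was left out. The Ezh2 transcript changed by -1.87 with run 440 only (adjusted p = 0.192) and by -1.94 to -1.62 with 1 library left out. Ptprc turned to 2.30 without WT 440_1 (edgeR adjusted p = 0.0161), and its range over the left-out libraries was -0.73 to 2.30. The causes were not tested. All 24 ranked genes and Gm7809 kept their direction in the alternatives run. These genes were picked on the same libraries, the 24 for no overlap between groups, so a kept direction was largely set by the choice. Of 33 list medians, 7 kept their sign and 26 did not.

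With the title number as a replicate block, 0 genes were lower against WT, 400 were higher and 742 lower against Eed KO, and Ezh2 changed by -1.77 (adjusted p = 0.557, the same as for Gm7809). Correlations of deviations between Ezh2 KO and WT libraries were -0.105 to 0.092 in 3 same-number pairs and -0.262 to 0.322 in 6 others. With so few pairs, some of them across runs, these values cannot decide whether same-number libraries were paired. The main fit has no term for the title number. Genes under a few counts per library are limited by depth.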

Other observations

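Pxdn, a peroxidase of the extracellular matrix called higher by DESeq2 and named after its values were seen, was 58.2, 42.3 and 53.2 CPM in Ezh2 KO crypts, against 3.74 CPM in WT 440_1 and 21.1 and 2.02 CPM in WT 385_1 and 385_2 (DESeq2 adjusted p = 0.0262, edgeR adjusted p = 0.562). Eed KO crypts had 1.37, 24.7 and 13.8 CPM, and Ezh2 KO crypts were higher than Eed KO crypts by 4.21 on the log2 scale (edgeR adjusted p = 0.0212).

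Of the 29 genes that DESeq2 called lower, 4 lay under 1 CPM in the Ezh2 KO libraries and in WT 440_1, and over 20 CPM in WT 385_1 and 385_2. They were Rps3a3, Gm8420, Rplp0-ps1 and Rps15a-ps8, named after their values were seen.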
